A study of Callithrix jacchus with 54 samples.

Results

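RSPO3, ELOVL7, SEMA3G, SEMA3C, SEMA3A, SEMA3D, SEMA3E and SEMA3F were followed through the whole RNA-seq series of common marmoset embryonic stem cells (cjESCs) that were turned into primordial germ cell-like cells (cjPGCLCs). They are 8 of the 14812 genes in the deposited table of TPM, a measure of transcript share scaled for gene length and library size. All 8 passed the filter on low values, a log2(TPM + 1) of at least 1.5 in at least 1 library, which 11197 genes passed. The genes were chosen by their TPM at 12 h with and without SOX17: RSPO3, ELOVL7, SEMA3G and SEMA3C had risen most when SOX17 was induced, and the other 4 are further class 3 semaphorins. What the 12 h libraries show is therefore a description with no test, whereas the later times, the induction without BMP4, the IWR1 route and the reconstituted ovaries were not used in the choice.

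R-spondins are secreted proteins that bind LGR receptors and keep the ubiquitin ligases ZNRF3 and RNF43 from removing WNT receptors from the cell surface, so that a cell responds more to WNT. ELOVL7 belongs to the elongases of very long chain fatty acids, enzymes of the endoplasmic reticulum that catalyse the first step of each round of chain lengthening. Class 3 semaphorins are secreted guidance cues. Most of them act through a neuropilin and a plexin A on the receiving cell, while SEMA3E binds plexin D1 directly, and they are best known for steering axons, blood vessels and migrating cells. SOX17, a transcription factor of endoderm and of primate germ cells, is the factor that was switched on here.

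The series holds 54 libraries of 27 conditions, with 2 replicates each, all made from the line CMES40 with the reporters BLIMP1-tdTomato and NANOS3-eGFP. In the transgenic arm, cjESCs kept in DK20FA medium carried rtTA, tetO-BLIMP1, SOX17-GR and DD-TFAP2C, and were collected before induction and at 12, 24, 48 and 96 h in BLSE (BMP4, LIF, SCF and EGF), in SOX17 + BLSE, or in SOX17 + LSE, which lacks BMP4. SOX17-GR, a fusion of SOX17 with the glucocorticoid receptor, was switched on with dexamethasone, which only the SOX17 conditions received, so the drug and SOX17 cannot be told apart. The control conditions carried the same transgenes, in 1 drug-selected line, and reads of the transgene cannot be told from those of SOX17 itself. In the other arm, cjESCs without transgenes, labelled wild type and kept in PESFA medium, were treated for 24 h with IM12 and activin A (pre-treated cells), then cultured in BLSE + IWR1, where IWR1 inhibits WNT signalling, for 12, 24, 48 or 96 h or 6 days. BLSE + IWR1 + BMS further held BMS493, an inverse agonist of retinoic acid receptors, and was collected at 12, 24, 48 and 96 h. Cells of day 6 were aggregated with mouse gonadal somatic cells into xenogeneic reconstituted ovaries (xrOvaries) and collected at day 20, 40 and 70. All induction media contained a ROCK inhibitor. Cells were sorted for BLIMP1-tdTomato at 96 h in the SOX17 and IWR1 conditions, at day 6 and in xrOvaries, and for the surface antigen TRA-1-60 in cjESCs and pre-treated cells. The other samples, BLSE at 96 h included, were all cells of the culture, so a difference at 96 h between SOX17 + BLSE and BLSE compares sorted with unsorted cells. A change within a SOX17 or IWR1 condition from 12, 24 or 48 h to 96 h or day 6 likewise compares unsorted with sorted cells. Changes from cjESCs or pre-treated cells start from cells sorted for TRA-1-60. In bulk RNA, more cells that express a gene and more RNA per cell cannot be told apart.

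Between 10146 and 12688 genes were above 0 TPM per library, and the log2(TPM + 1) values of the 2 replicates of a condition correlated across genes with r from 0.977 to 0.994. TPM keeps no read total, so the depth is unknown. SOX17 RNA was at 27.6 and 36.2 TPM in cjESCs in DK20FA and between 34.6 and 64.6 TPM in the 8 BLSE libraries. It was at 164 to 692 TPM in the 8 SOX17 + BLSE libraries and at 109.8 to 386 TPM in the 8 SOX17 + LSE libraries. These levels do not measure the activity of the SOX17-GR protein, which dexamethasone switched on. NANOS3, an RNA-binding protein of germ cells, stood at 394 and 487 TPM on day 6. In the 96 h libraries it had 276 and 234 TPM with sorted SOX17 + BLSE cells, and unsorted BLSE had 1.94 and 1.05 TPM. Each value below is given for replicate 1 and then replicate 2. Differences are on the log2(TPM + 1) scale with their standard error (SE), from a limma model over all 54 libraries with Benjamini-Hochberg adjusted p-values, and a gene is said to have risen or fallen where the adjusted p is under 0.01. This scale understates the change of genes with low TPM. Each of the 42 comparisons tested has 2 libraries against 2, so an exact permutation test of 1 gene alone cannot go below p = 0.333.

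At 12 h, the comparison that chose the genes, RSPO3 (gene ID 100399183) stood at 102 and 98.1 TPM with SOX17, whereas BLSE alone gave 8.07 and 14.2 TPM. ELOVL7 (100392386) was at 20.4 and 21.4 TPM against 1.91 and 1.75 TPM. SEMA3G (100390809), a semaphorin known from vascular endothelium, was at 10.3 and 11.7 TPM against 0.63 and 0.60 TPM. SEMA3C (100386670), known for its part in the outflow tract of the heart, was at 32.5 and 39.0 TPM against 5.24 and 3.49 TPM. In all 4 genes both SOX17 libraries lay well above both BLSE libraries, and the differences of 3.11, 2.95, 2.89 and 2.79 were the highest of all 11197 genes tested. Just outside these 4 were NANOS3, at 2.64, and SCIN, an actin-severing protein, at 2.62. SEMA3E (100411439) lay on the other side, at 24.3 and 15.1 TPM with SOX17 and 45.9 and 37.7 TPM without, a difference of -1.08. SEMA3A (100410716), SEMA3D (100409635) and SEMA3F (100407382) overlapped between the arms at 12 h. In this comparison 2.40% of all genes passed the threshold and 1.61% passed it as higher.

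**Figure D1:**
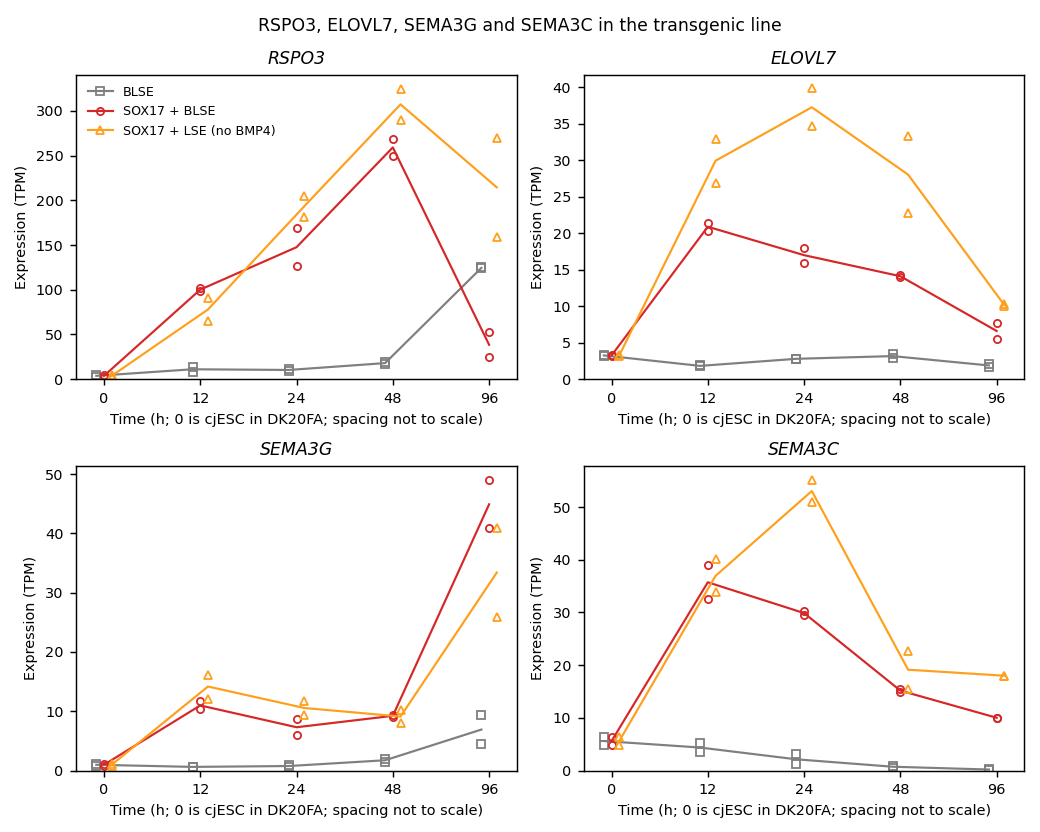
TPM of RSPO3, ELOVL7, SEMA3G and SEMA3C (one panel each, y axis) against hours of induction (x axis), with cjESCs in DK20FA at 0 h. Points are the 2 replicates and lines their mean, for BLSE (grey squares), SOX17 + BLSE (red circles) and SOX17 + LSE (orange triangles). RSPO3 in BLSE stayed under 20 TPM up to 48 h and was at 125 and 124 TPM at 96 h.

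Libraries at 24 and 48 h were not used in the choice, and the 4 leading genes were higher with SOX17 at both times. RSPO3 was at 127 and 169 TPM in SOX17 + BLSE against 11.6 and 9.19 TPM in BLSE at 24 h, a difference of 3.70 (SE 0.37, adjusted p = 4.82e-09) and a 14.2-fold higher mean TPM. At 48 h it was at 249.8 and 268 TPM against 16.7 and 19.3 TPM, a difference of 3.78 (adjusted p = 7.43e-10) and a 14.4-fold higher mean. The arms were thus far apart at both times, and the SOX17 libraries of 24 and 48 h lay above those of 12 h.

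ELOVL7 was at 18.0 and 16.0 TPM against 2.83 and 2.77 TPM at 24 h, a difference of 2.24 (SE 0.25, adjusted p = 2.92e-08). At 48 h it was at 14.2 and 14.0 TPM against 2.90 and 3.44 TPM, a difference of 1.86 (adjusted p = 2.64e-07). In contrast to RSPO3, its highest level in SOX17 + BLSE was the first one measured, at 12 h, and its libraries at 24, 48 and 96 h lay lower. The level of ELOVL7 in BLSE never left the range from 1.64 to 3.44 TPM.

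SEMA3G was at 5.99 and 8.62 TPM with SOX17 against 0.88 and 0.64 TPM without at 24 h, a difference of 2.22 (SE 0.25, adjusted p = 4.73e-08). At 48 h it was at 9.07 and 9.39 TPM against 1.97 and 1.5 TPM, a difference of 1.91 (adjusted p = 2.50e-07). SEMA3C was at 29.5 and 30.3 TPM against 3.06 and 1.2 TPM at 24 h, a difference of 3.37 (SE 0.24, adjusted p = 1.43e-12). At 48 h SEMA3C was at 14.8 and 15.5 TPM against 0.57 and 0.88 TPM, a difference of 3.23 (adjusted p = 7.60e-13). Here both arms went down from 12 h on, so that the ratio of mean TPM was 14.0 at 24 h and 20.9 at 48 h while the level in SOX17 + BLSE was lower at each later time.

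Of the 8 genes, 4 were higher and 0 were lower with SOX17 at 24 h, beside 7.56% of all genes called and 5.55% called higher. At 48 h the counts were again 4 and 0, beside 16.7% and 10.3%. The median difference of the 8 genes was 1.38 at 24 h and 1.28 at 48 h, where that of all genes tested was 0.10 at both times. The leading genes had been chosen by this same comparison at 12 h, so these counts and medians are a description. Each median falls between the leading genes and the others and stands for no single gene. SEMA3A, SEMA3D, SEMA3E and SEMA3F passed the threshold at neither time. SEMA3E lay below its BLSE libraries at 48 h, at 49.9 and 47.9 TPM against 80.5 and 73.6 TPM (adjusted p = 0.165), and overlapped with them at 24 h, at 37.0 and 18.7 TPM against 65.9 and 31.9 TPM (adjusted p = 0.120).

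At 96 h, where sorted SOX17 + BLSE cells were set against unsorted BLSE cells, the leading genes parted. SEMA3C was at 10.01 and 10.02 TPM with SOX17 and at 0.16 and 0.22 TPM in BLSE, a difference of 3.21 (adjusted p = 6.43e-14) and a 52.7-fold higher mean TPM. SEMA3G reached its highest level of the series, 40.8 and 49.0 TPM, against 4.48 and 9.35 TPM in BLSE, a difference of 2.60 (adjusted p = 4.18e-11). ELOVL7, at 5.53 and 7.69 TPM against 1.64 and 2.14 TPM, was still higher by 1.39 (adjusted p = 9.88e-06).

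RSPO3 turned round. It was at 24.3 and 52.7 TPM in SOX17 + BLSE at 96 h while BLSE was at 125 and 124 TPM, a difference of -1.77 (adjusted p = 0.000127) that was -1.22 and lost its call without SOX17 + BLSE 96 h replicate 1. The change of the SOX17 effect from 48 to 96 h was -5.54 for RSPO3 (adjusted p = 6.82e-10), and such a change was called in 3 of the 8 genes beside 15.5% of all genes. From 24 to 48 h limma called a change in 0 of the 8, with 1 at an unadjusted p under 0.05, beside 0.464% of all genes. At 96 h 7 of the 8 genes were called, 3 higher and 4 lower, beside 45.4% of all genes.

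**Figure D2:**
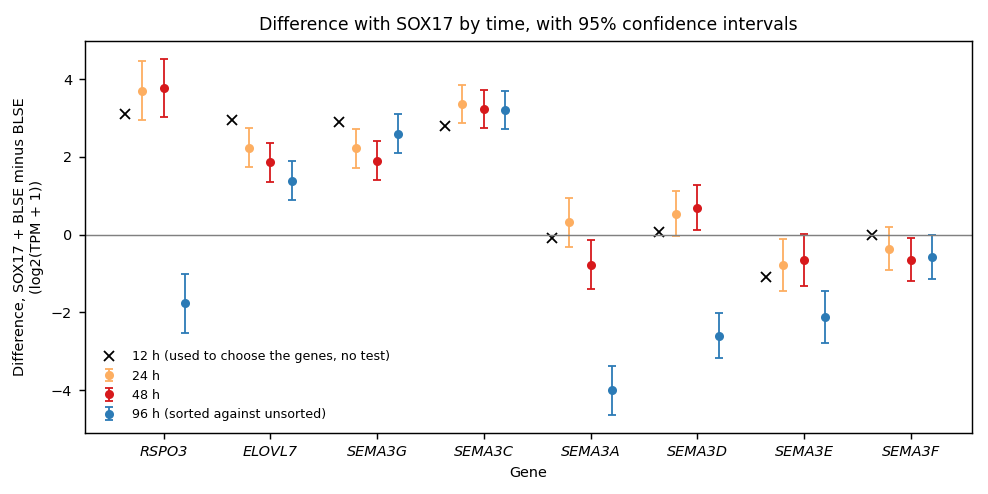
Difference in log2(TPM + 1) between SOX17 + BLSE and BLSE (axis of values) for each of the 8 genes at 12, 24, 48 and 96 h. Bars are 95% confidence intervals from the limma model. Crosses at 12 h are differences that were not tested because they chose the genes. RSPO3 lies at 3.70 and 3.78 at 24 and 48 h and at -1.77 at 96 h.

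The other genes that were lower with SOX17 at 96 h were SEMA3A, SEMA3D and SEMA3E. SEMA3A, a repellent of growing axons, was at 0.57 and 1.79 TPM in SOX17 + BLSE and at 30.7 and 34.4 TPM in BLSE, its highest level of the series, a difference of -4.00 (SE 0.31, adjusted p = 1.56e-13). SEMA3D was at 1.72 and 2.18 TPM against 20.3 and 13.8 TPM, a difference of -2.59 (SE 0.29, adjusted p = 1.01e-09). SEMA3E, at 3.04 and 5.52 TPM against 25.3 and 17.8 TPM, had a difference of -2.11 (SE 0.33, adjusted p = 1.29e-06).

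For SEMA3A and SEMA3D the shift between 48 and 96 h was itself tested, at -3.23 (adjusted p = 6.64e-07) and -3.29 (adjusted p = 1.07e-07). SEMA3D had gone up in both arms before that, to 20.8 and 20.0 TPM with SOX17 at 48 h and to 11.6 and 12.8 TPM in BLSE. Markers of other cells moved along with this comparison. Summed TPM of 5 mesoderm genes was 1340 and 1261 in BLSE at 96 h, most of it HAND1, against 85.8 and 114 in SOX17 + BLSE. MIXL1 (0.40 and 0 against 2.85 and 0.94 TPM) and TBX6 (0.15 and 0.14 against 2.96 and 1.79 TPM) went the other way. Amnion genes mostly lay higher in BLSE, with TFAP2A the other way. VTCN1 was at 44.4 and 52.0 TPM in BLSE against 2.89 and 3.45 TPM. GABRP, ISL1 and TBX3 were also higher in both BLSE libraries, and GATA3 overlapped. TFAP2A was at 10.5 and 17.3 TPM in BLSE against 37.9 and 44.3 TPM. The sums therefore do not name the cells. Summed TPM of 7 fibroblast genes was 1830 and 1160 in BLSE at 96 h, most of it the proteoglycan DCN, while COL1A1 was at 9.34 and 10.4 TPM. The part of these cells in the 96 h differences was not tested.

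**Figure D3:**
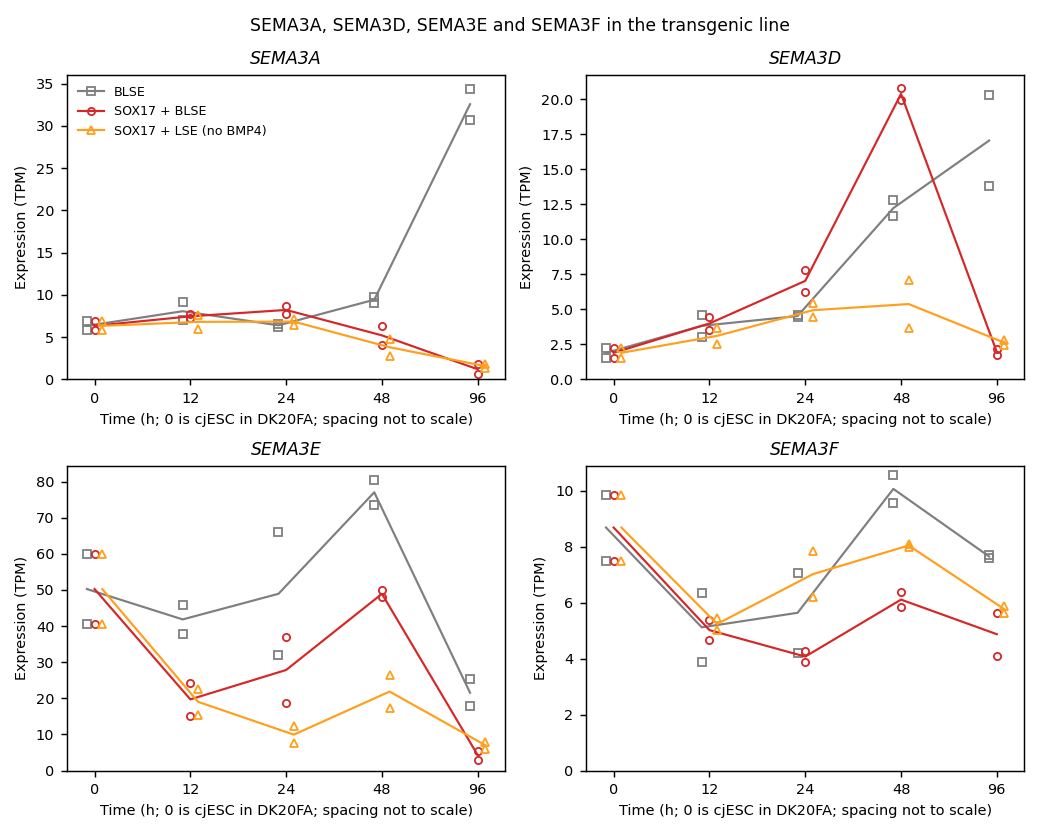
TPM of SEMA3A, SEMA3D, SEMA3E and SEMA3F (one panel each, y axis) against hours of induction (x axis), with points for the 2 replicates and lines for their mean in BLSE (grey squares), SOX17 + BLSE (red circles) and SOX17 + LSE (orange triangles). SEMA3A in BLSE at 96 h, at 30.7 and 34.4 TPM, lies above every other library.

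In SOX17 + LSE, the induction that lacked BMP4, the leading genes were higher than in cjESCs, in libraries outside the choice. The series holds no LSE condition without SOX17, so changes in this arm were measured from sorted cjESCs. SOX17 cannot be told apart here from dexamethasone, the change of culture or the sorting, and its own part was not tested. At 12 h RSPO3 was at 64.7 and 91.3 TPM, against 5.28 and 2.33 TPM in the cjESCs it started from, a rise of 4.09 (SE 0.37, adjusted p = 4.51e-10) and a 20.5-fold higher mean TPM. ELOVL7 was at 26.95 and 32.9 TPM against 3.29 and 3.23 TPM, a rise of 2.85 (adjusted p = 1.25e-10) and 9.18-fold. SEMA3G was at 12.2 and 16.2 TPM against 0.82 and 1.13 TPM, a rise of 2.93 (adjusted p = 1.18e-10) and 14.5-fold. All 3 genes lay apart from cjESCs in both libraries.

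SEMA3C, at 33.8 and 40.1 TPM against 6.39 and 4.81 TPM, rose by 2.53 (adjusted p = 1.15e-09). SEMA3E fell at the same time, from 40.5 and 59.9 TPM to 22.6 and 15.5 TPM, a difference of -1.35 (adjusted p = 0.00400) that lost its call without SOX17 + LSE 12 h replicate 2 (-1.09) or without cjESC DK20FA replicate 2 (-1.08). Hence 4 of the 8 genes rose and 1 fell at 12 h, beside 8.35% of all genes called and 5.25% called higher.

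Over the later times of SOX17 + LSE, RSPO3 was at 181 and 205 TPM at 24 h and at 324 and 290.0 TPM at 48 h, the highest level of the series and 6.07 above cjESCs (adjusted p = 8.86e-15). It was still at 159 and 270 TPM in the sorted cells of 96 h. ELOVL7 had its highest level of the series here, 34.7 and 39.8 TPM at 24 h, and was at 10.01 and 10.3 TPM at 96 h. SEMA3C likewise was highest at 24 h, with 51.0 and 55.1 TPM, while SEMA3G was highest at 96 h, with 26.0 and 40.9 TPM. ELOVL7 and SEMA3C were thus highest at 12 h in SOX17 + BLSE and at 24 h in SOX17 + LSE, and SEMA3G was highest at 96 h in both. The cells of 96 h were sorted, so time and sorting cannot be told apart for SEMA3G. Changes between times of induction within an arm were not tested. From cjESCs, 6 of the 8 genes were called at each of 24, 48 and 96 h, beside 11.2%, 13.5% and 33.8% of all genes.

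Measured from cjESCs in SOX17 + BLSE, 5 of the 8 genes had risen at 24 h and 5 at 48 h, and at 96 h 4 had risen and 2 had fallen, beside 16.8%, 26.3% and 43.2% of all genes called. The fifth riser was SEMA3D, by 1.48 at 24 h and 2.90 at 48 h. These values share the cjESC libraries with those of SOX17 + LSE. The smallest of them, ELOVL7 at 0.82 and SEMA3C at 0.75 at 96 h, were not firm. ELOVL7 lost its call without SOX17 + BLSE 96 h replicate 2 (0.62) or either of the cjESC libraries (0.83 and 0.81), and SEMA3C without any one of the 4 libraries (0.58 to 0.92).

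BLSE alone raised some of the same genes, with calls at 48 and 96 h. RSPO3 in BLSE already lay above both cjESC libraries at 12 and 24 h, but 12 h was not tested and 24 h was not called. RSPO3 rose by 2.05 over cjESCs at 48 h (adjusted p = 4.41e-05) and by 4.78 at 96 h (adjusted p = 4.25e-13). SEMA3A had risen by 2.20 at 96 h (adjusted p = 3.49e-07), SEMA3D by 2.63 and SEMA3G by 1.94. SEMA3C went the other way and fell by 1.13, 1.93 and 2.46 on the log2 scale at 24, 48 and 96 h, of which the first lost its call without BLSE 24 h replicate 2 (-0.69) or cjESC DK20FA replicate 1 (-0.96). ELOVL7 was called at none of the 3 times. In all, 1 of 8 genes was called at 24 h, 3 at 48 h and 6 at 96 h, beside 11.7%, 19.8% and 29.5% of all genes.

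SOX17 + LSE against SOX17 + BLSE gives the effect of leaving out BMP4 while SOX17 is on. For RSPO3 the difference was 0.40 at 24 h (95% confidence interval -0.36 to 1.16, adjusted p = 0.723) and 0.24 at 48 h (-0.51 to 1.001, adjusted p = 0.768). At 96 h RSPO3 was higher without BMP4 by 2.50 (adjusted p = 8.93e-06), with 159 and 270 TPM against 24.3 and 52.7 TPM. Of 6 endoderm genes 3 were higher in the same comparison, FOXA2 (37.4 and 59.4 TPM against 6.36 and 7.51 TPM), GATA6 (37.6 and 55.5 against 8.54 and 14.0 TPM) and TTR (15.6 and 16.8 against 0 and 2.40 TPM), and 0 were lower, while HHEX went the other way without a call (22.4 and 19.0 against 39.4 and 41.3 TPM). The 6 genes' summed TPM was 318 and 555 against 177 and 252, higher in replicate 2 of each condition, as RSPO3 was, and their part in the RSPO3 difference was not tested. The change of the BMP4 effect on RSPO3 from 48 to 96 h was 2.25 (adjusted p = 0.00647). It lost its call without any 1 of 6 of its 8 libraries, with values between 1.71 (without SOX17 + BLSE 96 h replicate 1) and 2.33 (without SOX17 + LSE 48 h replicate 1).

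ELOVL7 was higher without BMP4 by 1.09 at 24 h (adjusted p = 0.00423) and by 0.92 at 48 h (adjusted p = 0.00841). The first call was lost without any one of its 4 libraries, with values from 0.99 to 1.18. The second was lost without SOX17 + LSE 48 h replicate 1 (0.66) or either of the SOX17 + BLSE libraries of 48 h (0.93 and 0.91), and with a replicate block within each time of the transgenic arm (adjusted p = 0.0101). With that block SEMA3E was lower without BMP4 at 48 h too (-1.16, adjusted p = 0.00238). SEMA3D was lower without BMP4 at 48 h, at 7.11 and 3.63 TPM against 20.8 and 20.0 TPM, a difference of -1.80 (adjusted p = 1.66e-05). SEMA3E was lower at 24 h, at 12.3 and 7.58 TPM against 37.0 and 18.7 TPM, a difference of -1.36 (adjusted p = 0.00913) that was lost without SOX17 + BLSE 24 h replicate 1 (-0.88) or either of the SOX17 + LSE libraries of 24 h (-1.67 and -1.04). SEMA3G and SEMA3C were called at none of these times. The change from 48 to 96 h was called in 2 of the 8 genes beside 2.54% of all genes, and that from 24 to 48 h by limma in 0, with 1 at an unadjusted p under 0.05, beside 0.491%. Together, 2, 2 and 1 of the 8 genes were called at 24, 48 and 96 h, beside 2.62%, 8.01% and 7.11% of all genes.

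In the arm without transgenes, RSPO3 fell first and came up late. It was at 23.7 and 13.1 TPM in cjESCs in PESFA, at 12.2 and 28.7 TPM in pre-treated cells, and at 3.48 and 3.43, 1.32 and 1.71, and 4.14 and 2.46 TPM after 12, 24 and 48 h of BLSE + IWR1. It then came up to 35.9 and 43.8 TPM at 96 h and was back at 7.12 and 4.42 TPM at day 6. Against pre-treated cells it fell by 2.15 on the log2 scale at 12 h (adjusted p = 7.05e-05), by 2.98 at 24 h and by 2.23 at 48 h.

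The first of these lost its call without pre-treated replicate 2 (-1.57), as did the fall of 1.58 on the log2 scale at day 6 (-0.99, and -1.29 without day 6 replicate 2). Fibroblast genes moved with this start, although cjESCs, which are kept on mouse embryonic fibroblasts, and pre-treated cells, which were plated on fibronectin, had both been sorted for TRA-1-60. Their summed TPM was 2464 and 4670 in pre-treated cells and 2921 and 1682 in cjESCs in PESFA, most of it COL1A1, and 217 and 138 after 12 h of BLSE + IWR1. In both starting conditions the library with the higher sum had more RSPO3. POSTN ran the other way in both (1.65 and 2.06 TPM in cjESCs, 4.75 and 2.74 TPM in pre-treated cells), as did LUM in cjESCs (20.4 and 23.3 TPM). From pre-treated cells to 12 h, DCN went only from 19.8 and 23.65 to 17.5 and 17.85 TPM, and THY1 from 26.1 and 27.6 to 21.8 and 20.2 TPM. The feeder fibroblasts were of mouse and the reads were aligned to the marmoset genome, so these genes do not measure how many were present. The part of fibroblasts was not tested. Measured from the unsorted cells of 12 h instead, a comparison chosen after seeing the data, RSPO3 rose by 3.19 to the sorted cells of 96 h (adjusted p = 7.32e-09).

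SEMA3G was the leading gene that rose from pre-treated cells on this route. It was at 1.62 and 1.67 TPM at 12 h, 1.42 and 1.24 TPM at 24 h and 1.19 and 1.21 TPM at 48 h, then at 10.6 and 14.2 TPM at 96 h and 17.9 and 17.0 TPM at day 6. From pre-treated cells, with 1.84 and 2.02 TPM, it rose by 2.18 at 96 h (adjusted p = 4.12e-09) and by 2.65 at day 6 (adjusted p = 3.17e-11). From 12 h, a comparison chosen after seeing the data, it rose by 2.32 and 2.80.

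ELOVL7 fell from 3.32 and 3.27 TPM in pre-treated cells to 1.49 and 0.85, 0.75 and 0.90, and 1.07 and 1.02 TPM at 12, 24 and 48 h, by 1.001, 1.24 and 1.07 on the log2 scale. The calls of 12 and 48 h were lost without pre-treated replicate 2 (-1.01 and -1.08), that of 12 h also without pre-treated replicate 1 (-0.99) or BLSE + IWR1 12 h replicate 2 (-0.79). By day 6 ELOVL7 was at 6.59 and 4.53 TPM, higher than at 12 h by 1.59 (adjusted p = 1.14e-06). SEMA3C was at 11.6 and 14.1 TPM in pre-treated cells and between 1.89 and 4.83 TPM in all 10 libraries of BLSE + IWR1. It fell by 1.46, 1.57, 2.09 and 1.29 on the log2 scale at 12, 24, 48 and 96 h and by 1.51 at day 6. From 12 h no call was made on SEMA3C.

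SEMA3E went up on this route before it went down. It was at 13.0 and 9.69 TPM in pre-treated cells, rose to 60.3 and 68.0 TPM at 48 h, by 2.41 (adjusted p = 4.84e-07), and was at 2.21 and 1.37 TPM at day 6, a difference of -2.15 (adjusted p = 1.08e-06). SEMA3D followed with 6.98 and 10.5 TPM at 48 h and 0.21 and 0.47 TPM at day 6, the latter lower than in pre-treated cells by 1.87 on the log2 scale (a difference of -1.87, adjusted p = 9.47e-07). Pre-treatment itself changed 0 of the 8 genes by limma, where 1 had an unadjusted p under 0.05 and 0.304% of all genes were called. Of the 8 genes, 3, 4, 5, 3 and 6 were called at 12, 24, 48 and 96 h and day 6, beside 6.79%, 9.46%, 19.2%, 40.1% and 42.1% of all genes.

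BMS493 raised 1 of the 8 genes at 1 time. RSPO3 was at 11.8 and 23.1 TPM in BLSE + IWR1 + BMS at 48 h against 4.14 and 2.46 TPM in BLSE + IWR1, a difference of 2.06 (adjusted p = 0.000330) that was 1.60 and no longer called without BLSE + IWR1 + BMS 48 h replicate 2. SOX17 was at 50.6 and 100.1 TPM there and at 25.3 and 15.9 TPM without BMS493. The library with the higher SOX17 was the one with the higher RSPO3, and of 6 endoderm genes APOA1 likewise was at 5.81 and 14.2 TPM. GATA6, the 1 gene of the 6 that was called (higher by 1.68), was higher in the other library, at 354 and 126 TPM, and made up most of the list's summed TPM of 372 and 152, against 65.7 and 92.3 without BMS493. FOXA2 was at 4.96 and 4.66 TPM and TTR at 0, and the part of SOX17 and of these genes was not tested.

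At 96 h RSPO3 was at 127 and 65.3 TPM with BMS493 and at 35.9 and 43.8 TPM without (adjusted p = 0.0786). The summed TPM of the 6 endoderm genes was 366 and 248 with BMS493 and 114 and 173 without, with FOXA2 at 31.9 and 22.9 TPM against 5.74 and 7.67 TPM (adjusted p = 0.0112) and HHEX the other way, at 14.1 and 27.3 TPM against 51.3 and 35.0 TPM. By limma 0 of the 6 were called, with 5 at an unadjusted p under 0.05. In both conditions the library with more RSPO3 had the higher sum, and the part of these genes was not tested. SEMA3G was at 21.9 and 26.1 TPM against 10.6 and 14.2 TPM (adjusted p = 0.0393). Both genes lay higher with BMS493 in both replicates at 96 h, short of the threshold. By limma 0 of the 8 genes were called at 12, 24 and 96 h, where 0, 2 and 3 had an unadjusted p under 0.05, and the shares of all genes called were 0%, 0.0893% and 0.732%, with 4.83% at 48 h. A change of the BMS493 effect with time was called by limma in 0 of the 8 genes, with 2 and 4 at an unadjusted p under 0.05 from 24 to 48 h and from 48 to 96 h, beside 0.00893% and 1.15% of all genes.

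**Figure D4:**
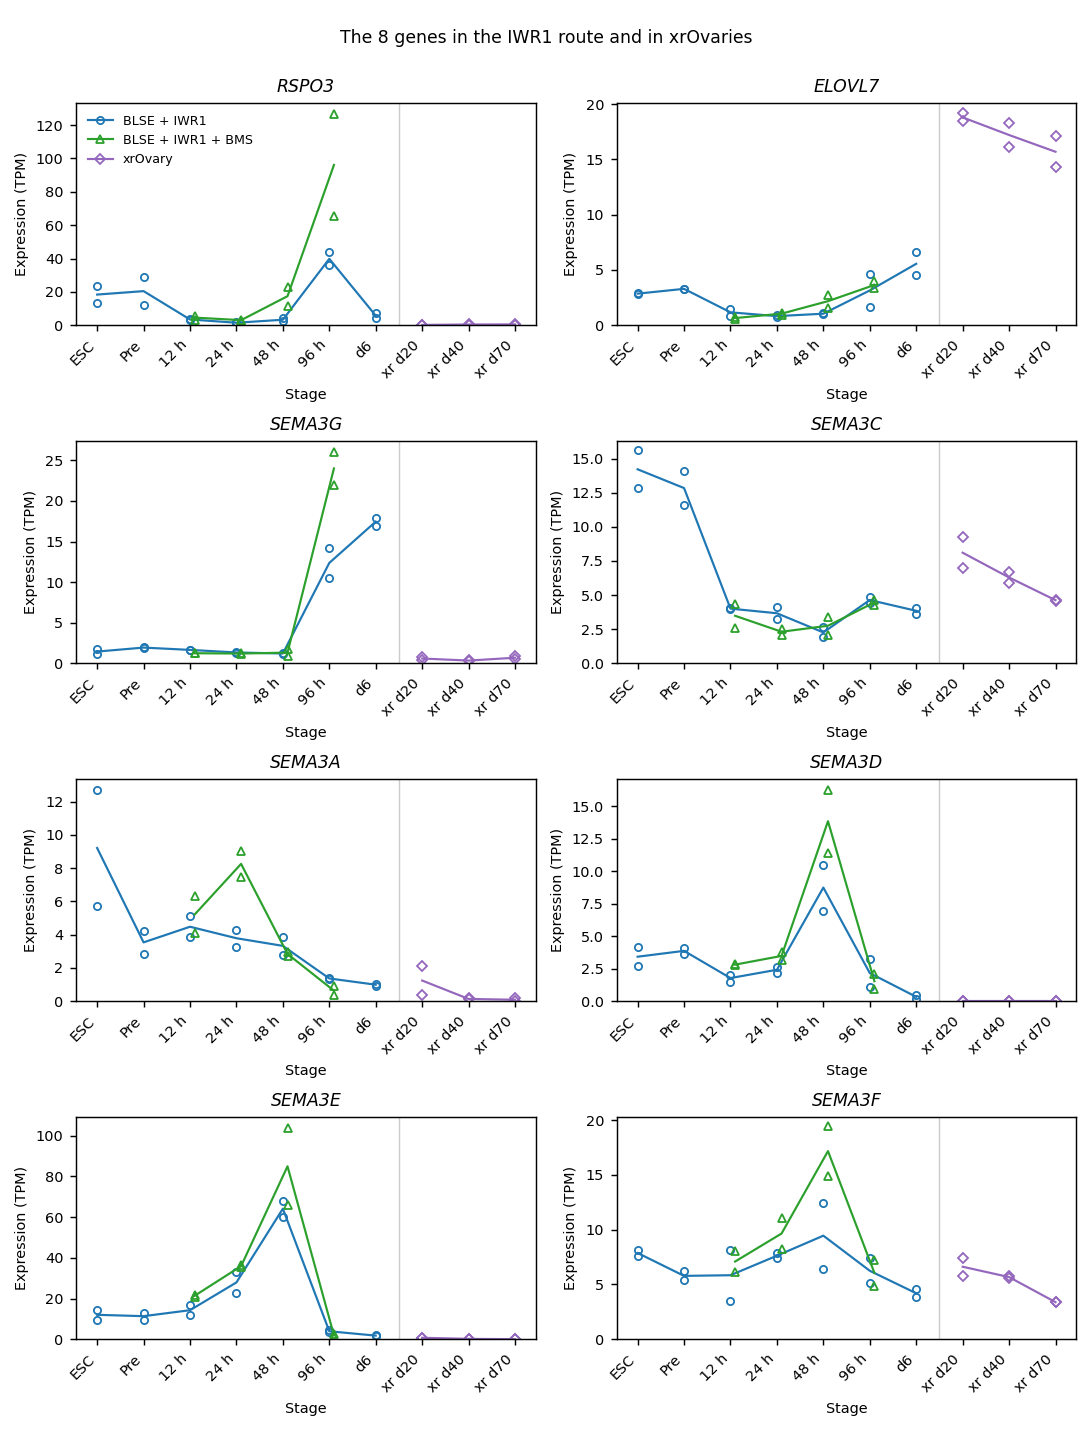
TPM of the 8 genes (one panel each, y axis) over cjESCs in PESFA, pre-treated cells, 12 to 96 h and day 6 of induction, and xrOvaries of day 20, 40 and 70 (x axis). Points are the 2 replicates and lines their mean, for BLSE + IWR1 (blue), BLSE + IWR1 + BMS (green) and xrOvaries (purple). SEMA3G is highest at the end of induction and under 1 TPM in xrOvaries, where ELOVL7 lies between 14.3 and 19.2 TPM.

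The routes to cjPGCLCs were then set side by side. They differ in transgenes, starting medium, pre-treatment, dexamethasone and IWR1 at once, and these cannot be told apart. RSPO3 was lower in BLSE + IWR1 than in SOX17 + BLSE by 5.87 on the log2 scale at 24 h (a difference of -5.87, adjusted p = 3.19e-14) and by 5.95 at 48 h (-5.95, adjusted p = 1.72e-14), and the mean TPM of the SOX17 route was 97.4 and 78.5 times that of the IWR1 route. At 96 h it was at 35.9 and 43.8 TPM against 24.3 and 52.7 TPM, and the groups overlapped (adjusted p = 0.879). The gap of 24 and 48 h was not seen in the sorted cells of 96 h.

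The other leading genes were also lower on the IWR1 route at 24, 48 and 96 h. The differences were -3.30, -2.89 and -0.96 for ELOVL7, -1.82, -2.22 and -1.79 for SEMA3G, and -2.73, -2.32 and -0.97 for SEMA3C. At 96 h the calls of ELOVL7 and SEMA3C were weak: that of SEMA3C was lost without any one of the 4 libraries (-1.02 to -0.92), and that of ELOVL7 without BLSE + IWR1 96 h replicate 2 (-0.41) or SOX17 + BLSE 96 h replicate 2 (-0.76). SEMA3D was lower by 1.22 on the log2 scale at 24 h and 1.16 at 48 h (differences of -1.22 and -1.16). Its call was lost at 24 h without BLSE + IWR1 replicate 1 (-1.13) or SOX17 + BLSE replicate 1 (-1.09), and at 48 h without BLSE + IWR1 replicate 1 (-0.89) or either of the SOX17 + BLSE libraries (-1.13 and -1.18). Lower calls were made for 5, 5 and 3 of the 8 genes and higher calls for 0, beside 13.7%, 20.9% and 6.08% of all genes called and 8.35%, 12.9% and 4.05% called lower. The leading genes had been chosen as high in SOX17 + BLSE at 12 h, the arm they were set against here, so these counts are a description.

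Against BLSE without SOX17, the IWR1 route was lower in RSPO3 as well, by 2.17 on the log2 scale at 24 h (a difference of -2.17, adjusted p = 2.78e-05), -2.17 at 48 h and -1.63 at 96 h (adjusted p = 0.000360). Transgenes, starting medium, pre-treatment and IWR1 differ at once here too and cannot be told apart. At 96 h sorted cells were also set against unsorted BLSE cells. SEMA3A was lower by 3.82 on the log2 scale in the sorted cells of 96 h than in unsorted BLSE cells (-3.82, adjusted p = 5.87e-13), and SEMA3C was higher by 2.24 (adjusted p = 5.88e-10). The counts called were 2, 4 and 6 of 8 at 24, 48 and 96 h, beside 14.6%, 21.2% and 44.1% of all genes.

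In xrOvaries the leading genes parted again. RSPO3, at 7.12 and 4.42 TPM on day 6, was at 0.42 and 0 TPM on day 20, 0.60 and 0.30 TPM on day 40 and 0.61 and 0.43 TPM on day 70, a difference of -2.48 at day 20 (adjusted p = 2.23e-06) and -2.13 at day 70 (adjusted p = 1.31e-05). SEMA3G fell from 17.9 and 17.0 TPM to 0.71 and 0.46, 0.29 and 0.37, and 0.52 and 0.84 TPM, a difference of -3.55 at day 20 (adjusted p = 9.60e-14) and -3.46 at day 70 (adjusted p = 4.20e-14). SOX17 stayed between 256 and 408 TPM in these 6 libraries.

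ELOVL7 rose instead. It was at 6.59 and 4.53 TPM on day 6 and at 18.5 and 19.2 TPM on day 20, 16.2 and 18.3 TPM on day 40 and 14.3 and 17.1 TPM on day 70, higher by 1.61 at day 20 (adjusted p = 2.64e-06) and by 1.36 at day 70 (adjusted p = 2.00e-05). These libraries overlapped with those of SOX17 + BLSE between 12 and 48 h, at 14.0 to 21.4 TPM. SEMA3C was at 9.24 and 6.97 TPM on day 20 against 4.07 and 3.62 TPM on day 6, a rise of 0.90 (adjusted p = 0.00389) that lost its call without xrOvary day 20 replicate 1 (0.72) or either day 6 library (0.97 and 0.83), and at 4.65 and 4.60 TPM on day 70 it was no longer called.

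SEMA3E went from 2.21 and 1.37 TPM on day 6 to 0 and 0.10 TPM on day 70, a difference of -1.39 (adjusted p = 0.000747) that lost its call without day 6 replicate 1 (-1.18) or xrOvary day 70 replicate 1 (-1.33). SEMA3D was listed at 0 in all 6 xrOvary libraries and SEMA3A was at 0.11 to 2.09 TPM with a 0 in 1 library. SEMA3F, at 3.37 to 7.46 TPM, was the only semaphorin of class 3 besides SEMA3C among the 8 genes that was above 3 TPM in every xrOvary library. Of the 8 genes 4 were called at day 20 and 4 at day 70 against day 6, beside 20.4% and 31.3% of all genes. From day 20 to 40 and from day 40 to 70, limma called 0, with 1 at an unadjusted p under 0.05 in each step, beside 4.60% and 2.73% of all genes. Genes of gonadal somatic cells summed to at most 5.95 TPM in these libraries. The somatic cells were of mouse and the reads were aligned to the marmoset genome, so this sum does not measure how many were present.

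**Figure D5:**
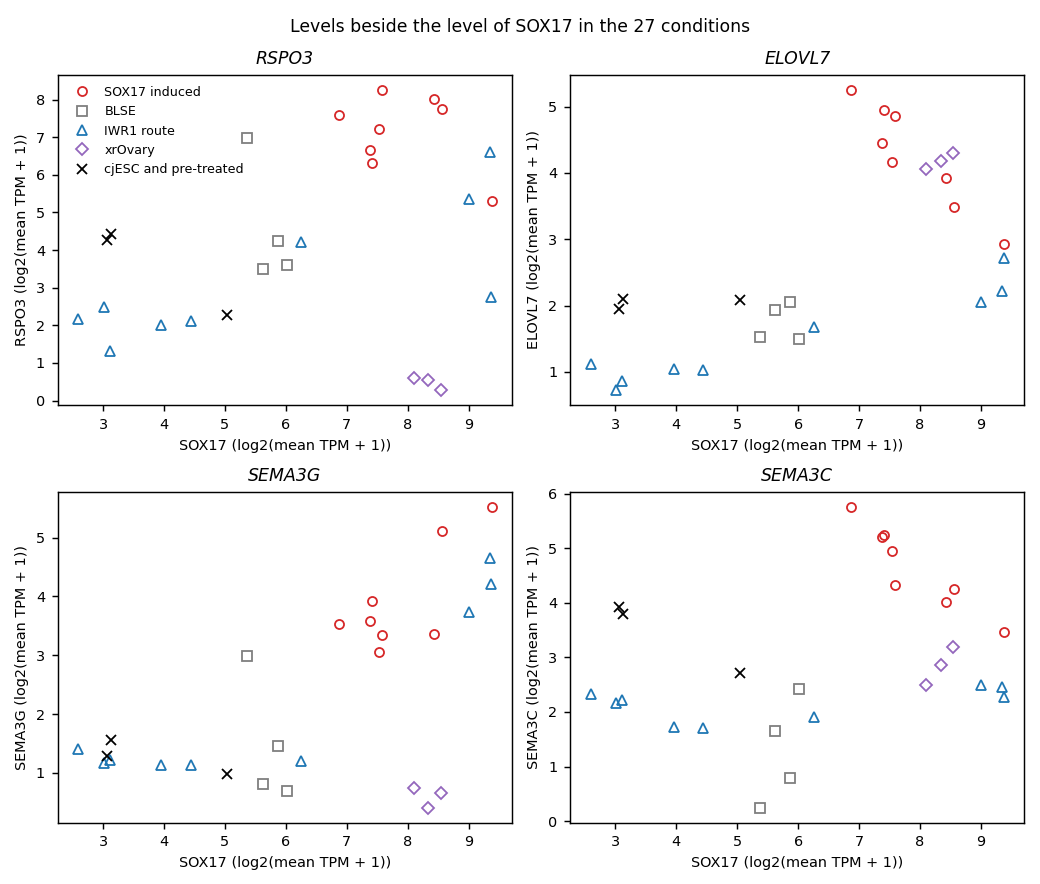
Log2(mean TPM + 1) of RSPO3, ELOVL7, SEMA3G and SEMA3C (one panel each, y axis) against that of SOX17 (x axis) in the 27 conditions, one point per condition. Conditions with the most SOX17 include RSPO3 levels from under 1 TPM in xrOvaries to over 100 TPM in SOX17 + LSE at 96 h.

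The leading genes were also read beside the level of SOX17 RNA, which does not measure the activity of the SOX17-GR protein. At 12 h SOX17 was at 164 and 168 TPM in SOX17 + BLSE, with RSPO3 at 102 and 98.1 TPM. At day 6 SOX17 was at 617 and 708 TPM, with RSPO3 at 7.12 and 4.42 TPM, ELOVL7 at 6.59 and 4.53 TPM and SEMA3C at 4.07 and 3.62 TPM. SEMA3G was above 10 TPM in the 5 conditions with the most SOX17, all of them sorted cells of 96 h or day 6, and under 1 TPM in xrOvaries, where SOX17 was at 256 TPM or more. In BLSE at 96 h SOX17 was at 34.6 and 46.0 TPM and RSPO3 at 125 and 124 TPM.

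Ordered by mean TPM over the 27 conditions, neighbouring conditions mostly had overlapping replicates. For RSPO3, 18 of the 26 neighbouring pairs overlapped and 8 did not, and its libraries ran from 0 to 324 TPM with a median of 15.5 TPM. For ELOVL7 14 overlapped and 12 did not, for SEMA3C 17 and 9, and for SEMA3E 17 and 9. The order was least resolved in SEMA3F, with 24 overlapping and 2 not, SEMA3D, with 23 and 3, SEMA3G, with 22 and 4, and SEMA3A, with 21 and 5. SEMA3F ranged from 3.37 to 19.5 TPM over all 54 libraries and was called in none of the 42 comparisons, SEMA3D was highest in SOX17 + BLSE at 48 h, and SEMA3E was highest in BLSE + IWR1 + BMS at 48 h, at 103.9 and 66.0 TPM.

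The genes through which RSPO3 acts were read from a list of 15 genes of the R-spondin axis, of which 11 were tested. At 24 h of SOX17 1 was higher, ZNRF3, the ubiquitin ligase that R-spondins hold back, by 1.304 (adjusted p = 0.00172), and 0 were lower, so that 1 of 11 stands beside 7.56% of all genes called. At 48 h 3 were higher and 2 lower, beside 16.7% of all genes, with a median of 0.05 over the list beside 0.10 over all genes. Those higher were LGR5, a receptor of R-spondins, by 2.08 (adjusted p = 2.24e-07), from 0.41 and 0.88 TPM to 6.07 and 5.74 TPM, and the secreted and intracellular inhibitors of WNT signalling NOTUM, by 1.68, and NKD1, by 1.36.

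Those lower were RSPO4, another R-spondin, by 2.62 on the log2 scale (a difference of -2.62, adjusted p = 0.000146), and the receptor LGR4, with a difference of -1.39, from 166 and 151 TPM to 62.2 and 57.5 TPM. LGR4 was thus the more abundant receptor in both arms. RSPO4, at 2.76 and 1.79 TPM, lay far below RSPO3 with SOX17, while in BLSE at 48 h, at 20.2 and 17.7 TPM, it overlapped with RSPO3. RSPO1 and RSPO2 stayed at a mean of at most 0.8 TPM in every condition. In xrOvaries of day 70 4 of the 11 were lower than at day 6 and 0 higher, beside 31.3% of all genes called, a share near theirs, NOTUM (-2.92), NKD1 (-1.72) and RSPO4 (-1.71) the most, with LGR4 at 12.0 and 12.3 TPM.

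Of a list of 11 receptors of semaphorins, 7 were tested. With SOX17 PLXNA2, a plexin, was lower by 1.55 on the log2 scale at 24 h (-1.55, adjusted p = 0.00185), and at 48 h PLXNA2 (-1.36) and the neuropilin NRP2 (-1.14) were, with 0 higher at either time, and these counts of 1 and 2 of 7 stand beside 7.56% and 16.7% of all genes called. NRP2 was at 219.7 and 207 TPM in BLSE at 96 h, the same libraries in which SEMA3A was highest, and at 30.9 and 40.5 TPM in SOX17 + BLSE. In xrOvaries of day 70 NRP2 was at 0.51 and 0.34 TPM against 38.3 and 43.1 TPM on day 6, a difference of -4.87 (adjusted p = 5.32e-16), and PLXNB1 (-1.43) and PLXNA3 (-1.12) were lower as well, which makes 3 of 7 beside 31.3% of all genes called.

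Of 10 tested genes that carry the signal inside the receiving cell, 3 were higher with SOX17 at 24 h, beside 5.55% of all genes called higher. They were the collapsin response mediators DPYSL3, by 1.55 (adjusted p = 1.43e-12), and DPYSL5, by 1.11, and the GTPase RND1, by 1.09. At 48 h the same 3 genes were higher, by 1.48, 1.15 and 1.94, and CRMP1 (-1.88) and MICAL2 (-2.19) were lower, beside 16.7% of all genes called. Of semaphorins outside the 8 genes, 5 of 14 were tested. By limma 0 of them were called at 24 or 48 h, with 1 and 2 at an unadjusted p under 0.05, and in xrOvaries of day 70 SEMA6A, a transmembrane semaphorin, was lower by 1.53 on the log2 scale (-1.53).

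Fatty acid elongation, the pathway of ELOVL7, was tested in 16 of 17 genes. At 24 h of SOX17 4 were higher, among them the desaturases FADS2, by 0.85, and SCD, by 0.74, and the fatty acid synthase FASN, by 0.74, with a median of 0.39 beside 0.10 over all genes and 5.55% of all genes called higher. At 48 h 1 of the 16 was higher, the reductase TECR, by 0.74, beside 10.3% of all genes called higher. The size of these differences lay below that of ELOVL7 itself, 2.24 and 1.86.

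In xrOvaries of day 70 the pathway held genes of both directions, 2 higher and 7 lower than at day 6, beside 31.3% of all genes called. ELOVL3, at 10.2 and 8.36 TPM against 2.46 and 2.40 TPM, was higher by 1.58, and ELOVL2, at 42.0 and 43.5 TPM against 18.8 and 18.5 TPM, by 1.16. Both are elongases, as is ELOVL6, which lengthens saturated chains and was at 0.39 and 0.09 TPM against 43.0 and 43.1 TPM, a difference of -5.16 (adjusted p = 1.60e-19). Thus ELOVL7, ELOVL2 and ELOVL3 went up while ELOVL6 went down, together with FADS2 (-1.87) and FADS1 (-1.79). Between the routes at 48 h, 7 of the 16 genes were lower in BLSE + IWR1 than in SOX17 + BLSE and 0 higher, beside 12.9% of all genes called lower, SCD (-1.24), ELOVL5 (-1.07) and FADS1 (-0.94) the most.

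Markers of other cells were read beside the SOX17 effect, in which 7.56% of all genes were called at 24 h and 16.7% at 48 h. Of 6 endoderm genes tested, 1 was higher at 24 h, the apolipoprotein APOA1 by 2.57 (adjusted p = 3.67e-05), and 3 at 48 h, the transcription factors FOXA2, by 4.19, and HHEX, by 1.47, and APOA1, by 3.55. Their summed TPM at 48 h was 438 and 519 with SOX17 and 178 and 184 without. The higher sum came from APOA1, at 305 and 392 TPM against 23.4 and 35.2 TPM, while GATA6 was at 92.1 and 84.3 TPM against 148 and 144 TPM, with TTR at 0 in both arms and FOXA1 at or under 0.46 TPM. Of 8 endothelial genes, 1 was higher at 24 h (TIE1, by 1.28), near the share of all genes, and 3 lower at 48 h, ESAM (-1.58), TEK (-1.57) and VWF (-1.18). Of 8 targets of the glucocorticoid receptor, read because dexamethasone came with SOX17, limma called 0 at 24 h, with 3 at an unadjusted p under 0.05 and a median of 0.01. At 48 h 3 were higher, TAT (4.67), NFKBIA (1.53) and KLF9 (1.12), and 1 lower, FKBP5 (-0.76). The part of these cells and of the drug in the rise of the 8 genes was not tested.

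Genes of like pattern were sought by Pearson correlation of condition means on the log2(TPM + 1) scale. The 27 conditions share libraries, arms and times, so the values are a description. Closest to RSPO3 were ABCC4 (0.903), APOA1 (0.890), ACAT2 (0.885), MSMO1 (0.883) and NAP1L5 (0.874). Closest to ELOVL7 were DIRAS3 (0.895), ATP1B3 (0.829), GATM (0.828), BHLHB9 (0.824) and RASGRP1 (0.821). For SEMA3G they were LGMN (0.890), GPC3 (0.880), PPT1 (0.869), PPP1R14A (0.866) and ENPP4 (0.865), and for SEMA3C FGF18 (0.848), TMEM185A (0.836), DDX43 (0.812), SPSB4 (0.799) and PDE6H (0.797). No 2 of the 4 leading genes shared a gene in these lists.

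For the other semaphorins the closest genes were ST8SIA4 (0.950) and CST3 (0.927) for SEMA3A, WLS (0.903), which carries WNT proteins to the cell surface, and CUEDC1 (0.899) for SEMA3D, TMTC2 (0.959) and BRD3 (0.954) for SEMA3E, and F2RL3 (0.758) and CCDC50 (0.753) for SEMA3F. Among the 8 genes themselves SEMA3A, SEMA3D and SEMA3E went together, with r of 0.717, 0.745 and 0.822 between SEMA3A and SEMA3D, SEMA3A and SEMA3E, and SEMA3D and SEMA3E. In RefSeq's annotation of the marmoset assembly calJac240_pri these 3 genes and SEMA3C lie on 1 chromosome, but SEMA3C correlated with them at -0.07, -0.08 and -0.16. ELOVL7 and SEMA3C correlated at 0.764, and RSPO3 and SEMA3G at 0.746.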

How the data were processed

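Per the labels and the study's methods, the authors sequenced single-end directional libraries of polyadenylated RNA, aligned the reads with STAR, filtered them on mapping quality, and counted them with RSEM, and they deposited TPM values for genes that marmoset and human share. The study's methods name the versions, which are not listed here. The deposited TPM of a library sum to between 790300 and 839203, so part of each library's genes is not in the table. Neither reads nor counts were used here.

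TPM were tested as log2(TPM + 1) with limma 3.58.1 in R 4.3.3, with 1 mean per condition over all 54 libraries (27 residual degrees of freedom), a trend of variance with level, and Benjamini-Hochberg adjustment over 11197 genes, those whose log2 value reached 1.5 in any library. A call is an adjusted p under 0.01. The model was checked on simulated data. Levels, ratios and correlations were computed with Python 3.11.15 and pandas 2.3.3. The study's methods call the 2 samples of a condition biological duplicates. The sources used here do not say which cultures they came from, so p-values measure the spread between these samples. No 2 libraries were identical.

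The 8 genes, the gene lists and the tests were chosen with earlier results of these data known, and the comparison of SOX17 + BLSE with BLSE at 12 h chose the genes and was not tested. From each list, up to 3 genes with the largest called change in each direction are named. Of the genes most similar in pattern, 5 are named for RSPO3, ELOVL7, SEMA3G and SEMA3C each and 2 for each other semaphorin. Alternatives were a pseudocount of 0.1, no filter, a replicate block, median-ratio and quantile scaling, no trend, only the libraries compared, and each library left out. Same-numbered replicates of the transgenic arm deviated together at 12 and 24 h (r from 0.12 to 0.29 in 6 of 6 pairs of conditions), which comes from the data and not from the labels, so a block within each time of that arm was added after seeing the data.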

Additional observations from a re-analysis of the deposited data

Results flagged for a closer look

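The effect of SOX17 (SOX17 + BLSE minus BLSE, on the log2(TPM + 1) scale) differed between 48 and 96 h, by a test of the difference itself in limma, for 3 of the 8 genes, beside 15.5% of all genes tested. The change was -5.54 for RSPO3 (adjusted p = 6.82e-10), from an effect of 3.78 to one of -1.77. It was -3.23 for SEMA3A (adjusted p = 6.64e-07) and -3.29 for SEMA3D (adjusted p = 1.07e-07). At 96 h the SOX17 cells were sorted and the BLSE cells were not, which cannot be told apart from time. Of the 8 genes 0 changed between 24 and 48 h, with 1 at an unadjusted p under 0.05, beside 0.464% of all genes.

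The effect of leaving out BMP4 with SOX17 on also differed between 48 and 96 h, for RSPO3 by 2.25 (adjusted p = 0.00647) and for SEMA3D by 2.10 (adjusted p = 0.000996), beside 2.54% of all genes. Cells of both conditions were unsorted at 48 h and sorted at 96 h, so time and sorting cannot be told apart here either. The RSPO3 value lost its call without any 1 of 6 of its 8 libraries (1.71 to 2.33) and with a pseudocount of 0.1, no filter, median-ratio scaling or no trend. The SEMA3D call was lost with a pseudocount of 0.1. The SEMA3D value was 1.69, and no longer called, without SOX17 + LSE 48 h replicate 2.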

How the results depend on the processing

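Of the 129 differences of single genes that were called, 0 changed sign under any alternative, 34 lost the call without 1 library, and 95 kept it under all alternatives but the model on only the libraries compared. That model has 2 residual degrees of freedom (4 for changes with time) and lost 100 calls. It called 5 of 24 gene tests for the SOX17 effect (15 with all libraries), 3 of 32 for SOX17 + LSE (23), 5 of 24 for SOX17 + BLSE (16) and 3 of 24 for BLSE (10) from cjESCs, 0 of 24 for BMP4 left out (5, with 10 at an unadjusted p under 0.05), 5 of 40 for BLSE + IWR1 from pre-treated cells (21), 0 of 32 for BMS493 (1, with 5 unadjusted), 0 of 24 between the routes (13, with 15 unadjusted), 4 of 24 for the IWR1 route against BLSE (12), 1 of 32 for xrOvaries (8) and 0 of 16 for the change of the BMP4 effect (2, with 4 unadjusted). A pseudocount of 0.1 gave 2 calls for BMP4 left out, 13 for xrOvaries and 0 for the change of the BMP4 effect. With no filter the first and the last of these were 3 and 1, and the last was 1 with median-ratio scaling or no trend. The cause was not tested. Median-ratio scaling moved the median of all genes by -0.24 in the SOX17 effect at 96 h and 0.20 in xrOvaries of day 70.

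Alternatives chosen after seeing the data gave 8 calls for the SOX17 effect and 6 for the IWR1 route against BLSE at 24 and 48 h only, where fewer tests enter, and 12 for BLSE + IWR1 measured from 12 h. Of 28 most similar genes, 10 were among the most similar by Spearman correlation and 14 with a pseudocount of 0.1.

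Leaving out 1 library at a time gave 14 to 15 calls for the SOX17 effect, 20 to 23 for SOX17 + LSE, 14 to 16 for SOX17 + BLSE and 9 to 10 for BLSE from cjESCs, 3 to 5 for BMP4 left out (3 without SOX17 + BLSE 24 h replicate 1, either SOX17 + BLSE 48 h library or either SOX17 + LSE 24 h library), 0 to 1 for pre-treatment (1 without cjESC PESFA replicate 1), 16 to 22 for BLSE + IWR1, 0 to 2 for BMS493 (0 without BLSE + IWR1 + BMS 48 h replicate 2, 2 without BLSE + IWR1 48 h replicate 2), 11 to 13 between the routes, 10 to 12 against BLSE, 6 to 8 for xrOvaries, 3 to 4 for the change of the SOX17 effect, 0 to 2 for that of the BMP4 effect (0 without SOX17 + LSE 48 h replicate 2) and 0 for that of the BMS493 effect. The median 12 h difference of the 8 genes was 1.43 to 1.52. A replicate block over all libraries lost 0 calls. Over all 351 pairs of conditions same-numbered samples correlated in their deviations at r from -0.27 to 0.29, with 41 pairs above 0.1, so the numbers do not pair the samples throughout, but at 12 and 24 h of the transgenic arm 6 of 6 pairs were above 0.1. A replicate block within each time of that arm, chosen after seeing the data, kept the 15 calls of the SOX17 effect and gave 5 for BMP4 left out, with ELOVL7 at 48 h lost and SEMA3E at 48 h gained. The depth behind TPM is unknown.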
